A study of Rattus norvegicus with 24 samples.

Results

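The insulin-like growth factor (IGF) family of ligands, receptors and binding proteins was examined in the nucleus accumbens of rats given methamphetamine (METH) at 1, both or neither of a pair of injections a month apart. The 9 listed genes were Igf1, Igf2, Igf1r, Igf2r, Igfbp2, Igfbp3, Igfbp4, Igfbp5 and Igfbp6. They were chosen by family name with earlier results of these same arrays known, and no single measured contrast is recorded as the reason. The differences below are therefore descriptions of these arrays and not independent evidence. Of the 9 genes, 8 had an annotated probe, which gave 9 of the 22523 probes on the array because Igfbp4 had 2. Igf1 is named only.

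IGF-1 and IGF-2 are secreted peptides related to insulin that promote growth, survival and metabolism. Both act through the IGF-1 receptor, a tyrosine kinase that signals through insulin receptor substrates, PI3 kinase and AKT, whereas the IGF-2 receptor, which also binds mannose 6-phosphate, takes IGF-2 into the cell for breakdown. The IGFBP proteins hold the ligands outside the cell and set how much of them reaches the receptors. In the adult brain, Igf2 and Igfbp2 are known for strong expression in the choroid plexus and the meninges.

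Male Sprague-Dawley rats, for which the labels give no age and no altered allele, were injected with saline or METH at 10 mg/kg. A month later came saline or METH at 2.5 mg/kg, and the tissue was taken 2 h after that. Group names give the first injection and then the second. SS (n = 4 arrays) had saline at both, SM (n = 6) saline and then METH, MS (n = 7) METH and then saline, and MM (n = 7) METH at both. The labels call the tissue nucleus accumbens, their source field calls it striatal, and they do not tie an array to 1 rat, so p-values measure the spread between these samples, which may be technical. The study's text counts rats in groups of equal size for its arrays, which differs from the unequal numbers of arrays in the labels.

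Each array gave 1 intensity a probe, a brightness from which background had been subtracted and which falls below 0 for dark probes. Intensities were made comparable by quantile normalization and put on the log2 scale, and differences are on that scale. Median intensity per array was 10.0 to 23.0, and 49.3% to 53.8% of probes were detected, that is, had a detection p under 0.05. Every one of the 21 medium spiny neuron genes with a probe was detected on every array. A probe was tested if detected on at least 4 arrays, and was called when limma's p, adjusted by the method of Benjamini and Hochberg over the 12943 tested probes, was under 0.05. Each group lay on both slides, with 12 arrays a slide. The number of arrays limits the precision.

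Expression of the family was uneven. Igf2, Igf1r, Igf2r, Igfbp2 and Igfbp6 were detected on all 24 arrays. Igfbp3 was detected on 18 arrays and 1 Igfbp4 probe (ILMN_2039365) on 14. The other Igfbp4 probe (ILMN_1530552) was detected on 1 array, and Igfbp5 on 0 of 24, where its intensity lay between -4.5 and 8.8. Those last 2 probes were not well above background in any group, so no fold is given for them. The 7 tested probes stand for 7 genes.

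Counted over the family, 2 of 7 tested members passed in SM against SS (Igfbp6 higher, Igf1r lower), where 13.7% of all tested probes were called. In MS against SS 2 of 7 passed (Igfbp2 higher, Igf1r lower), beside 18.1% of all probes. In MM against MS 3 of 7 passed, all higher (Igf2, Igfbp2 and Igfbp6), beside 1.13% of all probes, and in MM against SM 2 of 7, both higher (Igf2 and Igfbp2), beside 1.28%. None of 7 passed the interaction, which is the METH challenge difference after METH less that after saline, where 7.69% of all probes were called and 3 of the members (Igf2, Igf1r and Igfbp3) had an unadjusted limma p under 0.05. With 7 members chosen with results known, these shares describe the members and nothing is read from them. The median member difference was 0.02, 0.08, 0.11, 0.12 and 0.30 in the order of these comparisons, beside 0.01, 0.00, 0.00, 0.00 and 0.00 for all tested probes. The comparisons share arrays.

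**Figure D1:**
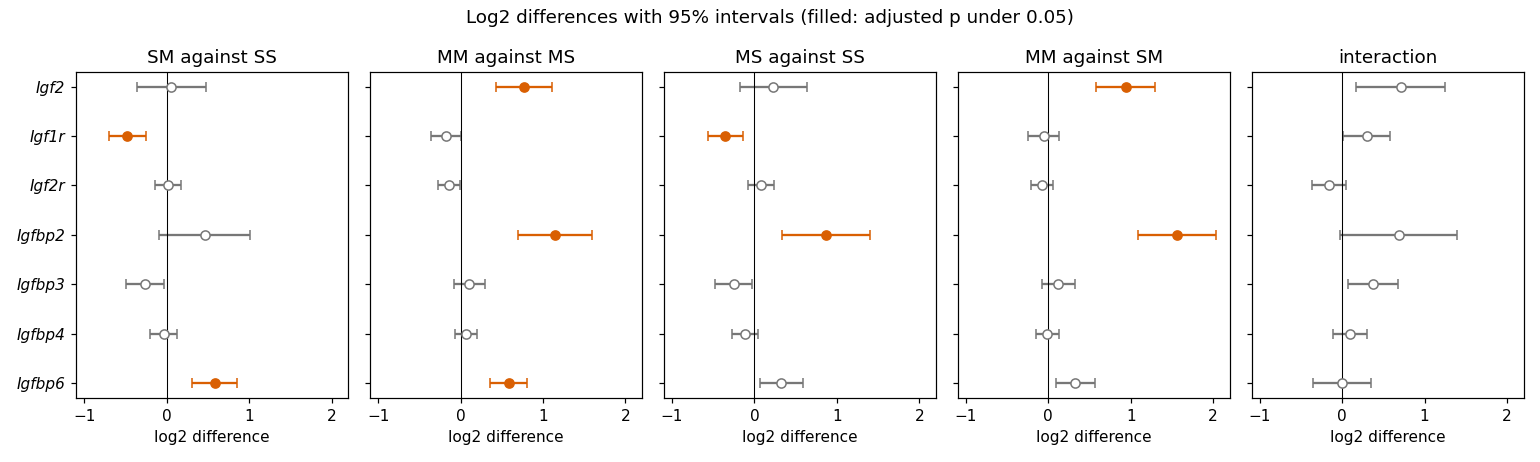
Log2 differences (horizontal axes) with 95% intervals for the 7 tested member probes in the 5 comparisons, filled where limma's adjusted p was under 0.05. Igf2, Igfbp2 and Igfbp6 lie to the right of 0 in MM against MS, Igf1r lies to the left of 0 in both comparisons against SS, and no interaction is filled.

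Igf2 and Igfbp2 were the members called higher in MM against both MS and SM, while Igfbp6 passed against MS but not SM. The RefSeq promoter windows of Igf2 and Igfbp2 are printed here for that reason. All 9 listed genes had a window in the RefSeq table (assembly GRCr8, 300 bases around an annotated start), and Igf2 had windows at 2 starts. Capitals mark the GC box (GGGCGG, read on both strands) and the E box (CACGTG, which reads alike on both strands).
Igf2, chr1:207253931-207254230, reverse strand: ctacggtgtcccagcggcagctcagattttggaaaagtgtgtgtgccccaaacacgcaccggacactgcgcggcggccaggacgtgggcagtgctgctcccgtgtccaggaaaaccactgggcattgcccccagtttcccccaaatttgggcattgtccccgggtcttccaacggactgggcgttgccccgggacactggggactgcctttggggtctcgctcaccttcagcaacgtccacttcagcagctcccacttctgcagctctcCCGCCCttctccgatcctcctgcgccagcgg
Igf2, chr1:207250426-207250725, reverse strand: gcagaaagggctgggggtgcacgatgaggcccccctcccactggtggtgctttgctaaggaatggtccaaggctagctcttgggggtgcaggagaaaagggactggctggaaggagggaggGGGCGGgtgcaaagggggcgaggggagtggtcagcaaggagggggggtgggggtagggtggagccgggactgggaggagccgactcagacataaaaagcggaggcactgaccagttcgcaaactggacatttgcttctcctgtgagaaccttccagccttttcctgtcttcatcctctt
Igfbp2, chr9:81864561-81864860, forward strand: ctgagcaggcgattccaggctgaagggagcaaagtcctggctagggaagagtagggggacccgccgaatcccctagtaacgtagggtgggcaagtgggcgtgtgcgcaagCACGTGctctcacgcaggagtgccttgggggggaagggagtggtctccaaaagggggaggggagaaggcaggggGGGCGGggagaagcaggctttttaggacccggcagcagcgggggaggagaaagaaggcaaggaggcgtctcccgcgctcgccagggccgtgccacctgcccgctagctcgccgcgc
A GC box was found once in each of the 3 windows, and 33.1% of the 33469 promoter windows of the same length held at least 1. The Igfbp2 window also held 1 E box, found in 6.42% of windows. No match to the cAMP response element (TGACGTCA, in 1.83% of windows), its core TGACG (21.2%, and contained in the longer motif), the AP-1 site (TGACTCA, 4.63%) or the TATA box (TATAAA, 14.2%), each read on both strands, lay in the 3 windows. The GC content was 63.3% and 60.7% in the Igf2 windows and 66.7% in the Igfbp2 window, beside a median of 51.7% over all windows. A match describes letters only, and binding was not measured.

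Igf2, the growth factor that is imprinted in most tissues, was highest in MM. Its intensity was 1490.2, 680.5, 870.5 and 1107 on the SS arrays. It ran from 934 through a median of 1179 to 1598 in SM, and from 867 through 1237 to 1502 in MS. In MM it ran from 1498 through 1774.5 to 4361.
After normalization all 7 MM arrays lay above every MS and every SM array, while SS, SM and MS overlapped. On the log2 scale the group means were 10.06 ± 0.39 in SS, 10.12 ± 0.11 in SM, 10.29 ± 0.35 in MS and 11.06 ± 0.43 in MM (SD).

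The Igf2 difference between MM and MS was 0.77 (SE 0.17; 1.70-fold; limma's adjusted p = 0.0183). Without MM sample 18 that call ended (0.74; limma's adjusted p = 0.0517). Between MM and SM the difference was 0.94 (SE 0.17; 1.92-fold; limma's adjusted p = 0.00798). Neither single exposure passed, at 0.06 for SM against SS (95% interval -0.36 to 0.47) and 0.23 for MS against SS (-0.18 to 0.63). The interaction was 0.71 (SE 0.26) and did not pass (limma's adjusted p = 0.0969). On slide 1 alone the MM against MS difference was 0.92 and on slide 2 alone 0.62, and MM against SM gave 1.08 and 0.83.

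Igfbp2, the most abundant IGF-binding protein of cerebrospinal fluid, was lowest in SS and highest in MM. Its intensity was 82.3, 103.3, 101.9 and 85.4 on the SS arrays. It ran from 137 through a median of 148 to 224 in SM, and from 149.7 through 210.4 to 253 in MS. In MM it was 333.9, 1361.9, 349.1, 443.6, 643.2, 314.8 and 296.1 for samples 4, 6, 10, 13, 18, 21 and 24.
All 7 MM arrays were above every array of the other groups, and all SM and all MS arrays were above all 4 SS arrays. The normalized log2 means stood in the order SS (6.90 ± 0.38), SM (7.36 ± 0.11), MS (7.77 ± 0.35) and MM (8.92 ± 0.71, SD). In that order the neighbours SS and SM did not differ beyond the threshold, and MS with SM was not tested.

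For Igfbp2, MM exceeded SM by 1.56 (SE 0.23; 2.95-fold; limma's adjusted p = 8.72e-04) and MS by 1.15 (SE 0.22; 2.21-fold; limma's adjusted p = 0.00715). METH a month before also went with a higher value without a challenge, as MS exceeded SS by 0.87 (SE 0.26; 1.83-fold; limma's adjusted p = 0.0185). That call rests on SS sample 1, the lowest array, without which the difference was 0.68 (limma's adjusted p = 0.0823). SM against SS was 0.46 (95% interval -0.09 to 1.01; limma's adjusted p = 0.295), and the interaction was 0.69 (95% interval -0.02 to 1.40; limma's adjusted p = 0.252). The model gives all groups a shared spread. The SM against SS interval therefore also carries the spread of MM (SD 0.71, beside 0.11 in SM and 0.38 in SS). Within the slides, MM against SM was 1.73 on slide 1 and 1.44 on slide 2, MM against MS 1.44 and 0.88, and MS against SS 0.96 and 0.81.

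**Figure D2:**
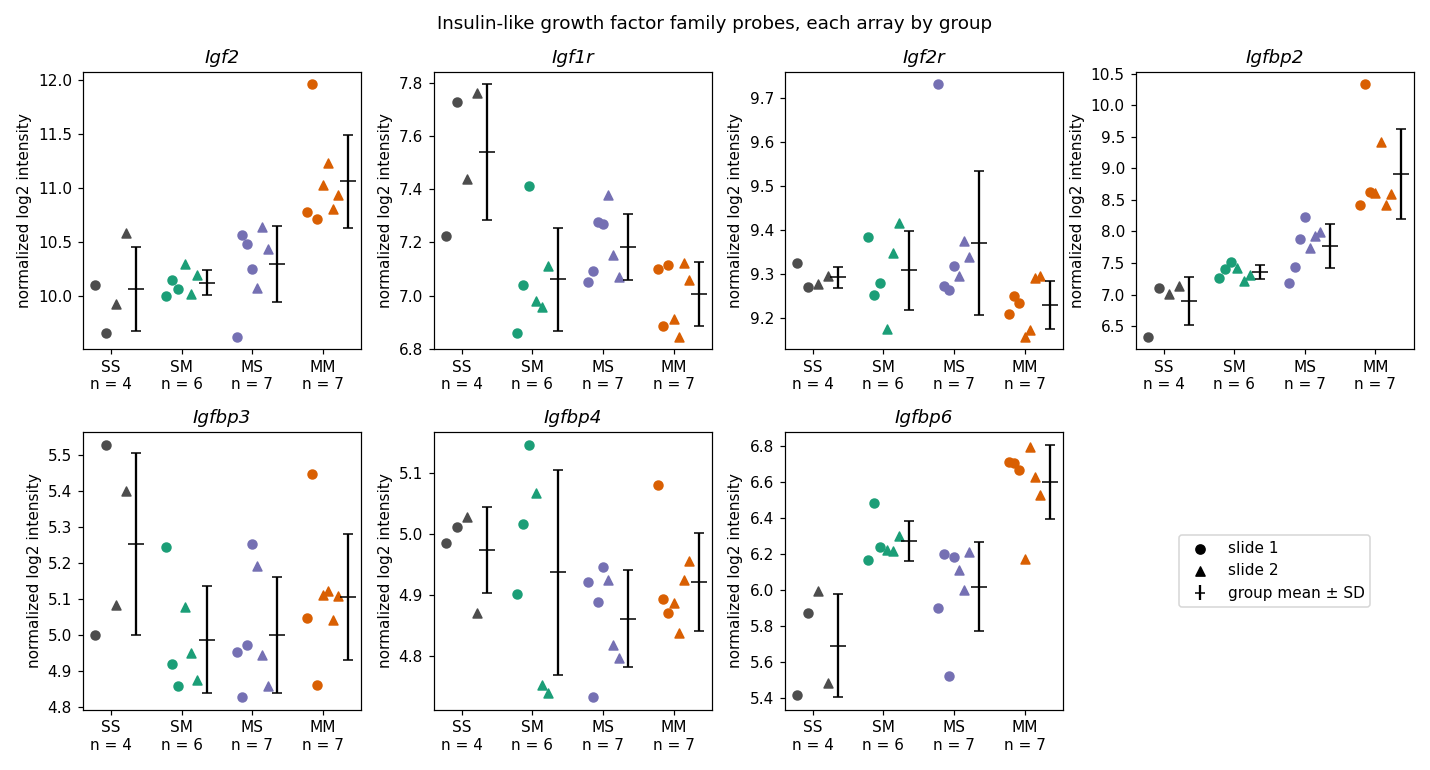
Normalized log2 intensity (vertical axes, each with its own range) of the 7 tested member probes on each of 24 arrays, by group, with circles for slide 1, triangles for slide 2 and bars for the group mean ± SD. All 7 MM arrays lie above the SM and MS arrays for Igf2 and Igfbp2, Igf1r is highest in SS, and Igf2r, Igfbp3 and Igfbp4 overlap between groups.

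Some transcripts of the choroid plexus, the epithelium that makes cerebrospinal fluid, moved with these MM differences. Of 10 tested choroid plexus genes, 3 were called higher in MM than in MS and 4 in MM than in SM, with none lower. Of all tested probes, 1.13% and 1.28% were called there. Slc4a5 and Car12, detected on every array, differed by only 0.04 and 0.10 in MM against MS, neither past the threshold. Of 19 choroid plexus genes with a probe, 8 to 15 were detected on each MM array and 4 to 7 on each array of the other groups. Their summed intensity was 3633 to 21091 in MM, 2875 to 5839 in SS, 2684 to 4706 in SM and 2714 to 4703 in MS. Much of it came from Ttr and from Enpp2, whose intensity was 2454.8 or more on every array. Without Ttr and Enpp2 the sum was 257 to 2015.5 in MM. It was 142.1 to 344.3 in SS, 154.4 to 479.8 in SM and 197.1 to 315.7 in MS. MM samples 4, 10, 21 and 24 then lay within the SM range.

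Ttr, the thyroid hormone carrier of the choroid plexus, had intensities of 353.8 to 9514 in MM, 66.2 to 207.3 in SS, -0.4 to 115.7 in SM and 3.9 to 18.2 in MS. It differed by 5.43 in MM against MS (limma's adjusted p = 1.17e-06) and 5.00 in MM against SM (limma's adjusted p = 1.96e-05). Ttr was detected on 4 of 7 MS and 3 of 6 SM arrays, so part of those arrays lay at background and the sizes of these differences are not exact. Sostdc1, a secreted inhibitor of bone morphogenetic protein signalling, was detected on all 7 MM arrays (20.2 to 625.9) and on 0 of the other 17. The channel gene Kcnj13, a defining choroid plexus marker, was detected on 0 of 24 arrays, and Folr1 and Clic6 on 2 MM arrays each. Their part in the Igf2 and Igfbp2 differences was not tested beyond the following values.

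Within MM the Igf2 level followed Ttr across the 7 arrays, with r = 0.92 and rho = 0.89 (two-sided exact permutation tests, p = 0.00198 and 0.0123, and 0.00595 and 0.0185 after Benjamini-Hochberg adjustment over 3 relations computed). For Igfbp2, r was 0.88 and rho 0.89 (exact permutation p = 0.00992 and 0.0123, adjusted 0.0149 and 0.0185). For Igfbp6, r was 0.02 and rho 0.07 (exact permutation p = 0.953 and 0.906, which the adjustment left as they were). Ttr and the 3 members called in MM against MS were picked with earlier results known. The adjustment does not cover that choice, so these p-values are descriptions.
Without MM samples 6 and 4, the arrays farthest from the median of Ttr, r was 0.97 for Igf2, 0.77 for Igfbp2 and -0.09 for Igfbp6. The slides held 3 and 4 MM arrays, too few for a value within each. Sample 6 was the highest MM array for Ttr, Igf2 and Igfbp2 alike. No relation was computed outside MM, where Ttr and Igfbp2 ordered the groups differently. Ttr intensity ran from 66.2 to 207.3 in SS and from 3.9 to 18.2 in MS. Igfbp2 intensity ran from 82.3 to 103.3 in SS and from 149.7 to 253.4 in MS.

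In a setting chosen after seeing the data, the 3 MM arrays with the highest Ttr (samples 6, 13 and 18) were left out. Igf2 then differed by 0.51 in MM against MS (limma's adjusted p = 0.204) and by 0.69 in MM against SM (limma's adjusted p = 0.0610), so that both calls ended. These 3 arrays were also the 3 highest for Igf2, so the choice of arrays itself made a smaller Igf2 difference certain, and nothing on the source of the difference is read from it. Samples 6 and 18 were also the highest MM arrays for Igfbp2, so a smaller Igfbp2 difference was certain too. Igfbp2 was still called in both comparisons, at 0.74 and 1.16, and Igfbp6 in MM against MS. In this setting fewer arrays entered the fit, and even the remaining MM arrays had Ttr intensities of 353.8 and more, above every array of the other groups.

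**Figure D3:**
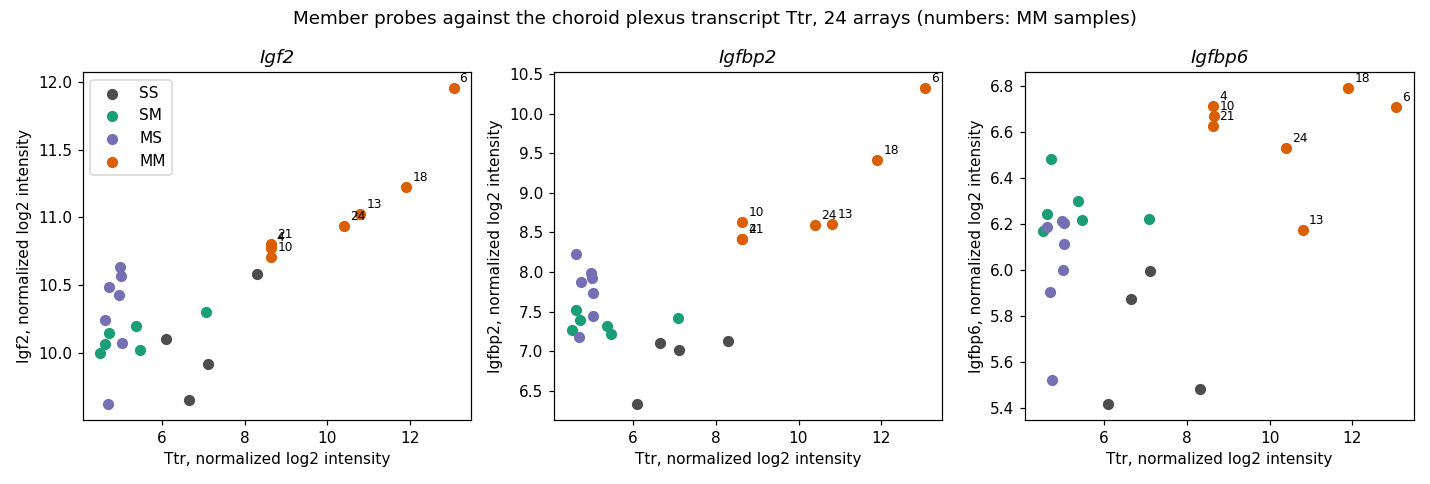
Normalized log2 intensity of Igf2, Igfbp2 and Igfbp6 (vertical axes) against that of the choroid plexus transcript Ttr (horizontal axes) on each of the 24 arrays, coloured by group and with the MM samples numbered. The MM arrays lie to the right in every panel, and within MM Igf2 and Igfbp2 increase with Ttr (r = 0.92 and 0.88, n = 7) while Igfbp6 does not follow it (r = 0.02).

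Meningeal genes were also examined beside Igf2, which fibroblasts of the meninges express. Of 16 tested, 1 was called higher in MM than in MS (6.25%, beside 1.13% of all probes called). In MM against SM 2 were higher (12.5%, beside 1.28%), and none was called lower in either. So few calls are not read as a change of the list. The listed gene Mgp had its lowest median intensity in MM (255.3, beside 313.5 in SM, 301.2 in MS and 372.95 in SS). Dcn, the matrix proteoglycan decorin, differed by 0.46 (limma's adjusted p = 0.0427) and 0.59 (limma's adjusted p = 0.0108), and Ptgds, the prostaglandin D synthase, by 0.44 in MM against SM (limma's adjusted p = 0.0493). The summed intensity of the 19 meningeal genes with a probe was 4961 to 8821 in MM (median 7225), 4671 to 7214 in SM (median 5452), 5205 to 6075 in MS (median 5373) and 5089 to 6685 in SS (median 5855). The ranges overlapped, and the MM median lay only just above the highest array of the other groups. Most of the sum was Ptgds, with medians of 5526.7 in MM, 4393.6 in SM, 4141.5 in MS and 4462.6 in SS. The part of these cells in the Igf2 difference was not tested. In bulk tissue, more cells of a type and more RNA per cell cannot be told apart.

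The signalling receptor gene Igf1r was highest in the arrays of rats that never had METH. Its intensity was 173.1, 167.4, 143.8 and 139.3 in SS, ran from 103 through a median of 127 to 165 in SM, from 104 through 125 to 170.3 in MS, and from 94.7 through 114 to 125 in MM.
After normalization, 5 of 6 SM arrays and 4 of 7 MS arrays lay below all SS arrays. The log2 means were 7.54 ± 0.25 in SS, 7.06 ± 0.19 in SM, 7.18 ± 0.12 in MS and 7.01 ± 0.12 in MM (SD). From the highest mean to the lowest the order was SS, MS, SM and MM, and the neighbours MS with SM and SM with MM differed by less than the SD of SM.

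Igf1r was lower in SM than in SS by -0.48 on the log2 scale (SE 0.11; limma's adjusted p = 0.00296) and lower in MS than in SS by -0.35 (SE 0.10; limma's adjusted p = 0.0167). These comparisons share the 4 SS arrays. The second call ended without SS sample 8 (-0.29; limma's adjusted p = 0.0872) or SS sample 20 (-0.28; limma's adjusted p = 0.0987). MM against MS was -0.18 (95% interval -0.36 to 0.00), MM against SM -0.05 (-0.24 to 0.13), and the interaction 0.30 (0.02 to 0.59; limma's adjusted p = 0.203). Within the slides, SM against SS was -0.37 on slide 1 and -0.58 on slide 2, and MS against SS -0.30 and -0.40.

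Igf2r, the clearance receptor, passed the threshold in none of the 5 comparisons (1 had an unadjusted limma p under 0.05). Its intensity spanned 427.4 to 846.8 in SS, 525.3 to 1025 in SM, 553 to 941.8 in MS and 493 to 655.7 in MM, and the groups overlapped after normalization. MM against MS was -0.14 (95% interval -0.27 to -0.01; limma's adjusted p = 0.334) and the interaction -0.16 (95% interval -0.36 to 0.05), and MS sample 3 stood above the other MS arrays.

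Markers of other cells and regions moved beside the SS comparisons. Beside the counts below, 13.7% of all probes were called in SM against SS and 18.1% in MS against SS. Of 21 tested medium spiny neuron genes, 15 were lower in SM than in SS (71.4%, list median -0.42). In MS against SS 17 were lower and 1 higher (85.7%, list median -0.51). Of 19 hypothalamic and preoptic genes with a probe, 7 to 11 were detected on each SS array, 10 to 15 on each SM array, 13 to 15 on each MS array and 14 to 15 on each MM array. Their summed intensity was 737.5 to 1072 in SS, 1566 to 3492 in SM, 1932 to 3383 in MS and 1757 to 2886 in MM, so SS did not overlap with any other group. Of 11 oligodendrocyte genes, 8 were lower in SM than in SS (72.7%, list median -0.45). In MS against SS 5 were lower and 1 higher (54.5%, list median -0.30). Of 16 tested interneuron genes, 6 were higher and 1 lower in SM (43.8%), and 9 higher and 1 lower in MS (62.5%). Of 13 tested genes of glutamatergic cortex and thalamus, 2 were higher and 1 lower in SM (23.1%). In MS 2 were higher and 6 lower (61.5%). The part of these marker changes in the Igf1r, Igfbp6 and Igfbp2 differences was not tested.

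Igfbp6, a binding protein with a preference for IGF-2 over IGF-1, was higher after the METH challenge whatever the first injection. Its intensity was 33.3, 35.1, 41.7 and 19.5 in SS. It ran from 45.2 through a median of 66.1 to 91.6 in SM, from 31.2 through 51.6 to 62.1 in MS, and from 65.4 through 81.9 to 95.5 in MM.
All 6 SM arrays lay above all 4 SS arrays, and 6 of 7 MM arrays lay above all MS arrays after normalization, with MM sample 13 as the exception. The log2 means were 5.69 ± 0.29 in SS, 6.02 ± 0.25 in MS, 6.27 ± 0.11 in SM and 6.60 ± 0.21 in MM (SD).

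SM exceeded SS in Igfbp6 by 0.58 (SE 0.13; 1.49-fold; limma's adjusted p = 0.00347) and MM exceeded MS by 0.58 (SE 0.11; 1.497-fold; limma's adjusted p = 0.00536). The interaction was 0.00 with a 95% interval of -0.35 to 0.35 (limma's adjusted p = 0.998), which leaves room for a difference of either sign of that size. MS against SS was 0.33 (limma's adjusted p = 0.0793) and MM against SM 0.33 (limma's adjusted p = 0.141), neither past the threshold. On slides 1 and 2, SM against SS gave 0.65 and 0.51, and MM against MS 0.74 and 0.42.

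Igfbp3, the main carrier of IGF in serum, was dim. Its intensity was 18.0, 25.3, 15.3 and 17.8 in SS, and lay between 8.9 and 35.2 in SM, 10.0 and 23.0 in MS, and 11.3 and 29.9 in MM. It was detected on 4 SS, 3 SM, 5 MS and 6 MM arrays. The differences were -0.27 in SM against SS (limma's adjusted p = 0.129) and -0.25 in MS against SS (limma's adjusted p = 0.116), and the interaction was 0.37 (limma's adjusted p = 0.125), none past the threshold. Without SS sample 1 all 3 passed, at -0.35 (limma's adjusted p = 0.0438), -0.34 (limma's adjusted p = 0.0397) and 0.46 (limma's adjusted p = 0.0478). The Igfbp4 probe that was tested gave intensities between 7.9 and 19.7 over all arrays and log2 differences between -0.11 (MS against SS) and 0.10 (interaction), none past the threshold.

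**Figure D4:**
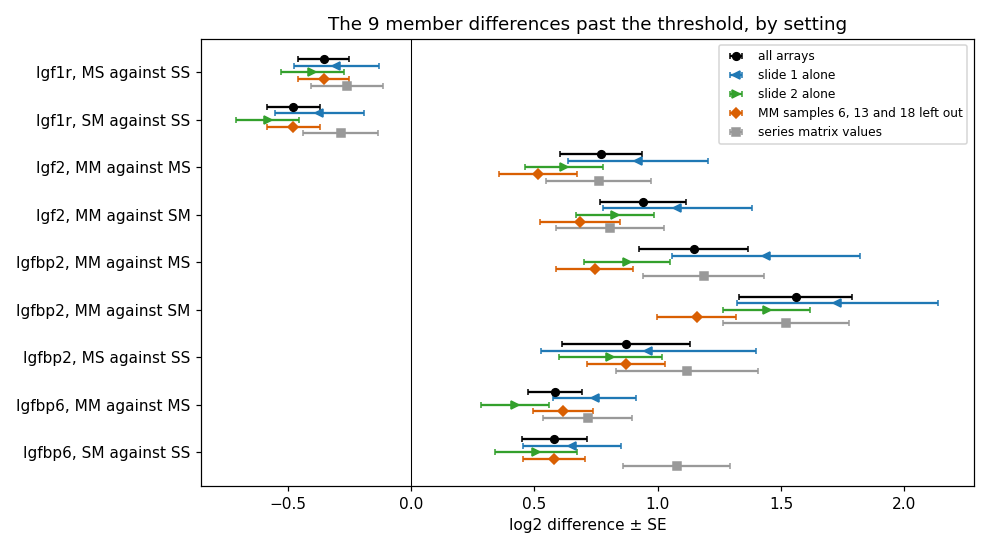
Log2 difference ± SE (horizontal axis) of the 9 member differences past the threshold, with all arrays, on each slide alone, without MM samples 6, 13 and 18, and from the authors' series matrix values. Every value keeps its sign. The Igf2 and Igfbp2 differences in MM are smaller without those 3 arrays (Igf2 0.51 against MS and 0.69 against SM). The choice of arrays made this certain, as it took out the highest MM arrays for both genes.

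Across the 24 arrays the normalized values of Igf2 and Igfbp2 had r = 0.88, and 0.68 after the group means were taken away. The genes most like Igf2 were Sostdc1 (r = 0.85), Mdk (0.84) and Epn3 (0.84) over all arrays, and Cd63, Sod3 and Ace (0.81, 0.80 and 0.80) in deviations from group means. For Igfbp2 they were Ecel1 (0.93), Plvap (0.86) and Sostdc1 (0.84), and in deviations Mdk (0.87), Scgb1c1 (0.83) and Msx1 (0.80). Without the 2 arrays farthest from the median, Ecel1 with Igfbp2 stayed at 0.96, while Sostdc1 was at 0.69 with Igf2 and 0.62 with Igfbp2. Sostdc1 was detected on MM arrays only, so its r over 24 arrays largely sets MM against background. Its rho was 0.64 with Igf2 and 0.46 with Igfbp2.

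Igf1r was most like Grin2c (0.86), Tmem63a (0.84) and Tjap1 (0.83), and in deviations like Abcc5, Wfs1 and Tbx2 (0.86, 0.85 and 0.81). Igfbp6 was most like Topors (0.84), Siah2 (0.81) and Btbd3 (0.80), and in deviations like Mrpl36, Susd2 and Blvrb (0.71, 0.71 and 0.70). Igf2r was most like Dscaml1, which held first place on both measures (0.85 and 0.85), though r was 0.52 and 0.56 without the 2 arrays farthest from the median. These are descriptions over arrays that share groups and slides, picked as the highest among all named probes.

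Over 4 lists of genes around the pathway, 5 of 38 tested genes were called in SM against SS (13.2%, beside 13.7% of all tested probes) and 8 of 38 in MS against SS (21.1%, beside 18.1%), shares near those of all probes. The genes are given for their own values. Of 8 tested relatives and regulators of the binding proteins, Stc1, a secreted inhibitor of the proteases that cut IGFBP4, rose in SM against SS (0.74; limma's adjusted p = 1.55e-04) and MS against SS (0.67; limma's adjusted p = 2.37e-04). Htra1, a secreted protease that can cut binding proteins, fell in both (-0.46, limma's adjusted p = 0.0203, and -0.60, limma's adjusted p = 0.00124). Both genes also passed the interaction, Stc1 at -0.66 (limma's adjusted p = 0.0113) and Htra1 at 0.67 (limma's adjusted p = 0.0138). The other 6 did not pass in any comparison.

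Downstream of the receptor, 2 of 20 tested genes of the PI3K, AKT, mTOR and FOXO list were lower in SM than in SS (10.0%, beside 13.7% of all probes called) and 4 in MS than in SS (20.0%, beside 18.1%), with none higher. Pik3cd, the catalytic delta subunit of PI3 kinase known from leukocytes, was lower by -1.18 (limma's adjusted p = 1.45e-07) and -1.22 (limma's adjusted p = 2.94e-08), and its interaction was 1.21 (limma's adjusted p = 1.60e-05). Inpp5d, a phosphatase that removes a phosphate from the PI3 kinase product, was lower by -0.54 in both (limma's adjusted p = 0.00393 and 0.00217). Gsk3b, a kinase that AKT inhibits, and Pik3r2, a regulatory subunit, were lower in MS alone past the threshold, by -0.46 (limma's adjusted p = 0.00674) and -0.29 (limma's adjusted p = 0.0487), and a difference between MS and SM was not tested. Of 12 tested microglia and macrophage genes, none passed in SM against SS, beside 13.7% of all probes. In MS against SS 1 was higher (8.33%, beside 18.1%). Of 21 medium spiny neuron genes, 15 and 17 were lower in the same comparisons. The part of any cell type in the Pik3cd and Inpp5d differences was not tested.

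Among 6 tested genes of the insulin receptor and its substrates, Ptpn1, a phosphatase that acts on the insulin receptor, was lower in MS than in SS by -0.32 (limma's adjusted p = 0.0203), and none passed in the other comparisons. Of 4 tested genes that bind Igf2 mRNA or are imprinted, Dlk1, an imprinted membrane protein, was higher in SM (1.19; limma's adjusted p = 3.65e-06) and MS (1.18; limma's adjusted p = 1.47e-06) than in SS and had an interaction of -1.30 (limma's adjusted p = 1.01e-04). Dlk1 is also on the hypothalamic list above. In MM against MS and MM against SM none of the 38 tested genes of these 4 lists passed limma's threshold. The shares of all tested probes called there were 1.13% and 1.28%. At such shares 38 genes are too few to tell a lack of calls from the background, and nothing is read from it. An unadjusted limma p under 0.05 was found for 5 and 6 of the genes.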

How the data were processed

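RNA was hybridised to 24 1-colour Illumina BeadChips. The authors deposited intensities made with BeadStudio (version not given in the sources used here), with background subtracted (lowest value -21) and no scaling between arrays. The deposited detection p-values hold 1 minus p and are in another order than the intensities (Spearman correlation -0.00699 to 2.47e-04 per array), so both were ranked on every array and paired by rank, ties taking the larger p. The authors' log2 values in the series matrix are the log2 of the deposited intensities, floored at 1 (26.1% of values lay below), less each probe's median. The 2 sources differed by at most 2.32e-06.

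In R 4.3.3 with limma 3.58.1, intensities were background-corrected by neqc (offset 16), quantile-normalized and put on the log2 scale. A linear model with a mean for each group was fitted to all 24 arrays over the 12943 tested probes, followed by eBayes and Benjamini-Hochberg adjustment. The procedure was tested on simulated data. Exact permutation tests used scipy 1.17.1. Probes were named through GEO's platform annotation, which gave 1 symbol to 13793 of 22523 probes and none to 8730.

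The members, the pathway lists and the marker lists were chosen with earlier results of these data known. Every member probe is named. Of each pathway list the genes with the smallest p past the threshold were named, at most 4. Of each marker list at most 4 were named, with more for the choroid plexus. For likeness the 3 named genes with the highest Pearson correlation were taken. Alternatives changed the background correction, offset, scaling, source, filter, slide, array weights, probes per gene and arrays. Sample numbers run over all groups and pair no samples.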

Additional observations from a re-analysis of the deposited data

Results flagged for a closer look

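In 28 groups of 4 to 7 arrays, 7 member probes in each of 4 groups, 4 had 1 array whose gap to the nearest other array took up more of the group's range than Dixon's 95% limit, or 14.3%, where chance flags about 1 in 20 groups. MM sample 6 was high for Igf2, with a gap of 0.586 of the range (log2 11.96 against 11.23 for the next). This array also had the highest Ttr intensity, 9514.

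MS sample 3 was high for Igf2r, with a gap of 0.763 of the range (log2 9.73 against 9.37). Its array weight, a measure of how closely an array follows its group, was 0.32. SS sample 1 was low for Igfbp2, with a gap of 0.850 of the range (log2 6.33 against 7.02), and its array weight was 0.34. MM sample 13 was low for Igfbp6, with a gap of 0.574 of the range (log2 6.17 against 6.53).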

How the results depend on the processing

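No paired analysis was possible because the sample numbers run over all groups and no number is shared. Over 39 settings, 24 of which left out 1 array each, 969 of 1002 recomputed member results stayed on the same side of limma's threshold, 25 lost and 8 gained a call, and none that was called reversed. Of 757 recomputed values of uncalled results, 37 changed sign.

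With the series matrix values, which were not scaled between arrays, the members called numbered 0 in MM against MS and 1 each in MM against SM (Igfbp2), MS against SS (Igfbp2) and SM against SS (Igfbp6). There the Igfbp6 difference in SM against SS was 1.08, beside 0.58. The median of all probes there shifted by 0.25 in SM against SS, 0.14 in MS against SS, -0.11 in MM against SM and -0.25 in the interaction. On slide 1 alone, with 12 arrays and 2 SS arrays, 0 members were called in each of the 5 comparisons, and 0 of all probes in MM against MS and MM against SM. On slide 2 alone 0 were called in MM against MS. In settings added after seeing the data, leaving out MM samples 6, 13 and 18 left 1 member called in MM against SM (Igfbp2), and leaving out samples 1, 3 and 11, with array weights under 0.5, gave 1 in the interaction (Igf1r). Leaving out 1 array gave 1 to 2 members in MS against SS (1 without SS sample 8 or 20) and 0 to 1 in the interaction (1, Igfbp3, without SS sample 1). The Igf2 call in MM against MS also ended without MM sample 18 (limma's adjusted p = 0.0517) and under scaling to one median (0.0668), within a range of 0.00512 to 0.5684 over its alternatives. The causes were not tested.

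Calls over all probes, 146 in MM against MS and 166 in MM against SM, ranged from 0 to 604 and from 0 to 443 over the settings other than leaving out 1 array, with the highest counts under array weights. For SM against SS the count was 161 to 3502 and for MS against SS 444 to 2992 beside 1772 and 2337, and for the interaction 19 to 2046 beside 995.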
